A study of Rattus norvegicus with 8 samples.

Results

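Collagens are the structural proteins of the extracellular matrix, and each is built from 3 chains wound into a triple helix. Every row whose gene symbol consists of Col, a number, the letter a and a number was taken as a collagen chain gene. This rule found 39 genes of 18513 listed in either deposited table. All 39 stood in the table of differentiated adipocytes, among 18236 genes, and 33 of them stood in the table of undifferentiated cells, among 14295 genes. Col2a1, Col24a1, Col4a6, Col10a1, Col28a1 and Col19a1 were listed for the adipocytes only. The chains fell into 11 fibrillar, 6 basement membrane, 3 network, 6 beaded filament, 8 fibril-associated, 2 multiplexin and 2 transmembrane chains, and Col7a1, which forms anchoring fibrils.

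RNA of wild-type Wistar rat cells was sequenced in 8 libraries, 2 in each of 4 groups. AD_HFS and AD_C were adipocytes obtained in culture from the adipose-derived stem cells (ASC) of rats fed a high-fat sucrose (HFS) or a control (C) diet for 6 months, and ASC_HFS and ASC_C were those stem cells before differentiation. The ASC came from inguinal fat by collagenase digestion and were grown in serum-containing medium. The AD cells had 3 days of induction with dexamethasone at 5.0 µM, IBMX at 0.5 mM and insulin at 10.0 µg/mL, then 7 days of maintenance in which insulin alone was kept. The labels give no age or sex. Nothing in them tells if replicate libraries stand for different rats or dishes, so p-values measure only the spread between these libraries, which may be technical. Where a group has less of a transcript in such bulk RNA, fewer cells that make it and less RNA per cell cannot be told apart.

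Fibrillar collagens (types I, II, III, V, XI, XXIV and XXVII) make the rope-like fibrils of connective tissue, and the fibril-associated chains sit on the surface of these fibrils. Type IV chains form the sheet of the basement membrane that wraps every fat cell, type VI chains form beaded filaments that link that sheet to the fibrils around it, and type VIII chains form short open networks. In fat tissue the matrix around adipocytes is remodelled as the cells fill with lipid, and fibroblast-like progenitors are a known source of its fibrillar chains.

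Several collagen genes start close to each other or lie side by side, and such pairs recur in the results. Sequences near the starts of some collagen genes, paired or not, are shown here. In the RefSeq annotation of rat (build GRCr8, which is not the build of the deposited tables), Col4a2 and Col4a1, Col4a4 and Col4a3, and Col4a6 and Col4a5 are head-to-head pairs whose starts lie 76, 412 and 1414 bases apart. Col6a1 and Col6a2, Col6a6 and Col6a5, and Col3a1 and Col5a2 are also next to each other. The first sequence is the whole stretch between the starts of Col4a2 and Col4a1, the chains of the basement membrane found in nearly all tissues. The other sequences are the bases just upstream of the start of Col1a2, a chain of type I collagen, of Col4a4, the gene with the largest rise in ASC_HFS, and of Col8a2, one of the genes that fell. Capitals mark the motif CCAAT, the motif TATAAA or the motif GGGCGG on either strand, so that ATTGG stands for the first and CCGCCC for the last of them on the other strand. All are RefSeq GRCr8 sequences, printed 5′ to 3′ on the strand named.
Col4a2-Col4a1, chr16:84885521-84885596, plus strand: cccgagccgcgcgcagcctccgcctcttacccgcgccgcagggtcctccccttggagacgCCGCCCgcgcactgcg
Col1a2, chr4:33518307-33518556, plus strand: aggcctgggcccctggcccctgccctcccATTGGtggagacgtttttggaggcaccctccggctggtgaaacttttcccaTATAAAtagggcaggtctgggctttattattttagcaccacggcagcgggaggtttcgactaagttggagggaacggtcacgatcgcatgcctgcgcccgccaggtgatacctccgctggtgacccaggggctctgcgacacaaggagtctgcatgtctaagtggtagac
Col4a4, chr9:91323578-91323827, minus strand: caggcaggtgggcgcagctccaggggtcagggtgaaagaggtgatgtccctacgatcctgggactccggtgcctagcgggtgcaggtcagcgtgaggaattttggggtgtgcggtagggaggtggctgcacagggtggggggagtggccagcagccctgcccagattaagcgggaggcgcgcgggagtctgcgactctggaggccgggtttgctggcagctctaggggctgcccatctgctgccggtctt
Col8a2, chr5:143870519-143870753, plus strand: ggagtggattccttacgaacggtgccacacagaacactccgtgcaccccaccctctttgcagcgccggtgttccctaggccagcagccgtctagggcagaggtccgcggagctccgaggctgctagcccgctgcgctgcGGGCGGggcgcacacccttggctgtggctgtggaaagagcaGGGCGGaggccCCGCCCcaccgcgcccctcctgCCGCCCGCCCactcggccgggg
Promoters of 31 of the 39 genes were in the table of RefSeq promoters, each covering 250 bases before to 50 bases after the start. GGGCGG, the core of the GC box, was found on either strand in 18 of these 31 promoters (58.1%), against 33.1% of all 33469 promoters. CCAAT was found in 10 of 31 (32.3%), against 37.5% of all promoters. TATAAA was found in 4 of 31 (12.9%), against 14.2%, and TGANTCA, the AP-1 site, in 1 of 31 (3.23%), against 7.33%. Of the genes that rose in ASC_HFS, 6 had a promoter in the table, and 3 of these held GGGCGG. Both type VIII promoters held it too. Each motif was searched on both strands, and none of them contains another. A match describes the sequence only.

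The libraries differed widely in depth. The AD libraries held 76083827 to 119555051 reads and the ASC libraries 992618 to 7290961 reads, with ASC_HFS replicate 2 the shallowest. In that library 10.6% of all genes had no read, and the 3 reads used as the detection floor amounted to 10.9 normalized counts, against 1.34 to 3.80 in the other libraries. A list of adipocyte markers (Adipoq, Plin1, Fabp4 and 6 others) took 1.99% to 2.44% of the reads of the AD libraries and 0.191% to 0.452% of those of the ASC libraries. Normalized counts here are reads scaled to a common depth within each table, and values of different genes are not compared, because gene lengths were not at hand.

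In ASC, chains of type VI collagen, the less widespread type IV chains, Col5a3 and Col15a1 were higher in the HFS libraries, and type VIII and type XII chains were lower. With limma-trend and Benjamini-Hochberg adjustment over all 14295 genes, 7 of 33 collagen genes rose (Col5a3, Col4a4, Col4a5, Col6a2, Col6a3, Col6a6 and Col15a1) and 3 fell (Col8a1, Col8a2 and Col12a1). These 10 genes are 30.3% of the collagens listed, while 19.1% of all genes were called, 9.41% as higher and 9.70% as lower. The HFS libraries lay above both C libraries for 20 of the 33 genes, against 28.5% of all genes, and below both for 5, against 32.5%. The groups overlapped for the other 8. No overlap was thus seen for 75.8% of the collagens, against 61.0% of all genes. The median log2 difference was 0.48 for the collagens and -0.04 for all genes tested, on the compressed scale of the deposited values. When any 1 of the 4 libraries was left out, limma-trend called 0 genes of the whole ASC table, although 2318 to 4538 had an unadjusted p under 0.05. limma-voom, a count-based alternative, called 16 collagen genes with all 4 libraries, and 3025 of the 11791 genes it tested. Without ASC_HFS replicate 1 or without ASC_HFS replicate 2 it called fewer, over all genes as well as among the collagens.

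**Figure D1:**
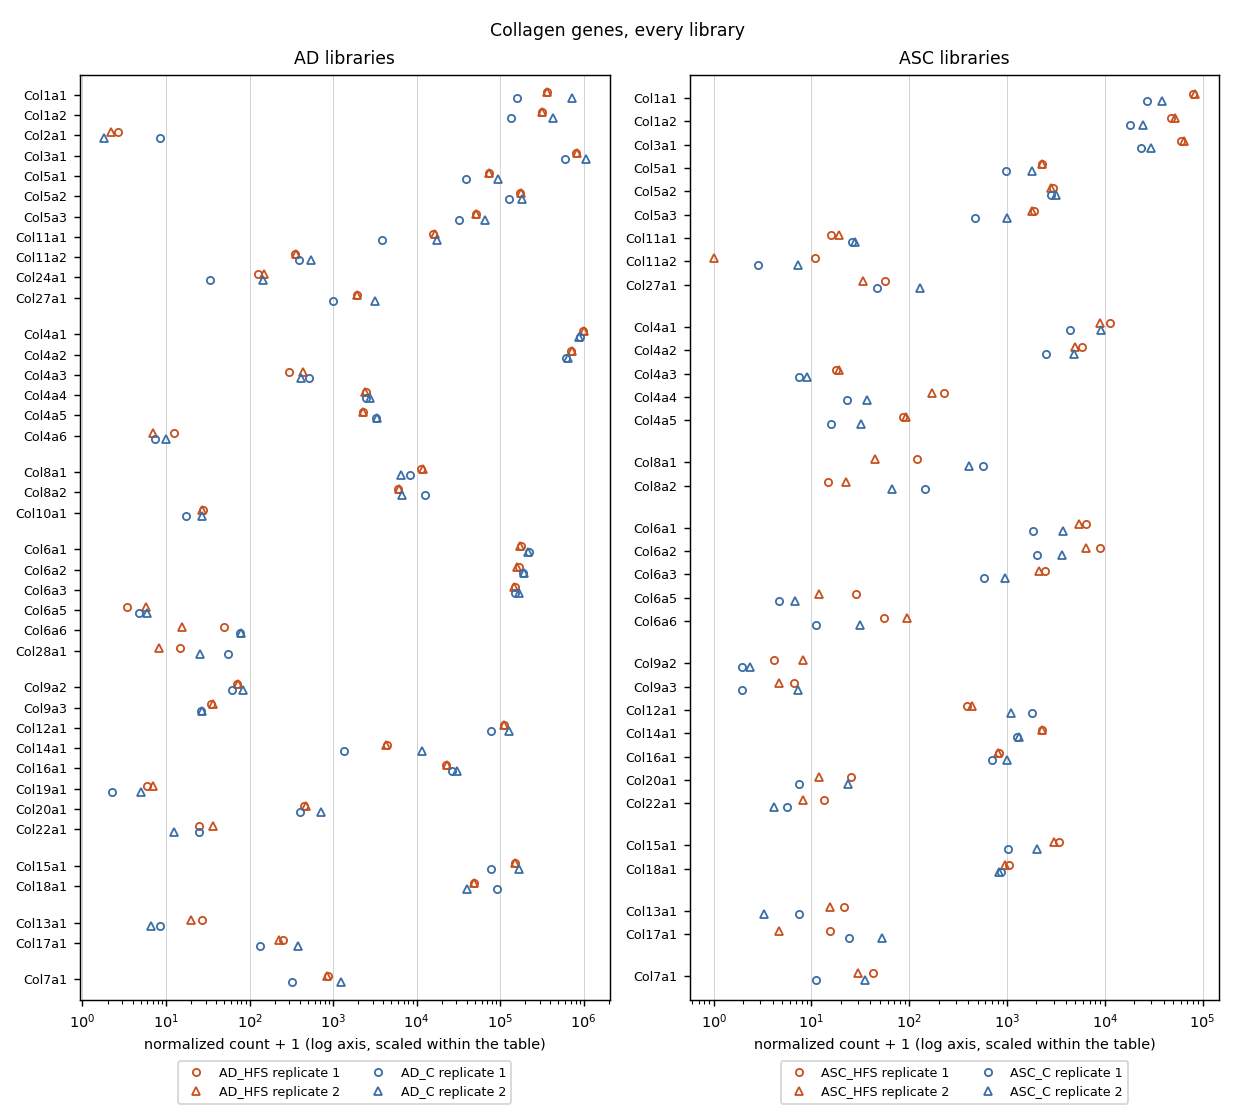
Normalized count plus 1 of each collagen gene in every library (log axis), with AD libraries on the left and ASC libraries on the right, HFS in orange and C in blue, circles for replicate 1 and triangles for replicate 2. Gaps separate the classes in the order fibrillar, basement membrane, network, beaded filament, fibril-associated, multiplexin, transmembrane and anchoring. The 2 AD_HFS libraries nearly coincide for most genes, while the 2 AD_C libraries lie far apart for many fibrillar chains.

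Fibrillar chains took most of the collagen reads in ASC, and 1 of 9 passed the test (11.1%, against 19.1% of all genes). Col5a3 (ENSRNOG00000020525), a regulatory chain of type V collagen, which helps to start fibrils and limits their width, had 1884 and 1806 normalized counts in ASC_HFS, against 469 and 1001 in ASC_C. It rose 2.51-fold (log2 difference 1.34, SE 0.34, adjusted p = 0.0155). Its partner Col5a1 had 2269 and 2303 normalized counts in ASC_HFS, against 984 and 1799.6 in ASC_C, a ratio of 1.64 (adjusted p = 0.139), and the groups did not overlap. Its partner Col5a2 had 2941 and 2839 normalized counts in ASC_HFS, against 2848 and 3191 in ASC_C, a ratio of 0.957 (adjusted p = 0.923), and the groups overlapped.

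The main chains of skin and fat fibrils were higher in every ASC_HFS library than in every ASC_C library without passing the threshold. Col1a1 (ENSRNOG00000003897), the major chain of type I collagen, had 80759 and 84351 normalized counts in ASC_HFS, against 26787 and 38759 in ASC_C, a ratio of 2.52 (log2 difference 1.36, SE 0.50, adjusted p = 0.0744). Its partner Col1a2 (ENSRNOG00000011292) had 47273 and 52295 normalized counts in ASC_HFS, against 17921 and 24398 in ASC_C, a ratio of 2.35 (log2 difference 1.25, SE 0.47, adjusted p = 0.07699). Type III collagen is made of Col3a1 (ENSRNOG00000003357) alone, and its fibrils mix with those of type I. Col3a1 had 60647 and 64330.5 normalized counts in ASC_HFS, against 23587 and 29596 in ASC_C, a ratio of 2.35 (log2 difference 1.24, SE 0.48, adjusted p = 0.0856). limma-voom called all 3 as higher. Of the remaining fibrillar chains, Col11a1, Col11a2 and Col27a1 had at most 128 normalized counts in any ASC library, and none passed the test.

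All 5 basement membrane chains listed in ASC had higher means in ASC_HFS, and the less widespread chains were the ones called. Col4a4 (ENSRNOG00000014851), which with Col4a3 and Col4a5 forms the network of the kidney filter and a few other sites, had 225 and 170.4 normalized counts in ASC_HFS, against 22.2 and 35.9 in ASC_C. It rose 6.81-fold (log2 difference 1.63, SE 0.23, adjusted p = 0.000487), and limma-voom called it without any 1 library as well. Col4a5 (ENSRNOG00000018951) had 85.4 and 90.7 normalized counts in ASC_HFS, against 14.8 and 30.9 in ASC_C. It rose 3.85-fold (log2 difference 0.97, SE 0.22, adjusted p = 0.00941). Both ASC_HFS libraries lay above both ASC_C libraries for these 2 genes, although the reads behind them were few, 25 to 361 a library in ASC_HFS and 16 to 80 in ASC_C. Col4a3, the head-to-head neighbour of Col4a4, had 16.8 and 18.1 normalized counts in ASC_HFS, against 6.48 and 8.07 in ASC_C (adjusted p = 0.279), with only 5 reads in the shallowest library.

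The ubiquitous type IV chains were not called. Col4a1 (ENSRNOG00000016281) had 11315 and 9040.4 normalized counts in ASC_HFS, against 4381 and 9237 in ASC_C, a ratio of 1.49 (log2 difference 0.66, SE 0.43, adjusted p = 0.298). Col4a2 (ENSRNOG00000023972) had 5852 and 4910.0 normalized counts in ASC_HFS, against 2501 and 4829 in ASC_C, a ratio of 1.47 (log2 difference 0.61, SE 0.39, adjusted p = 0.286). For both genes ASC_C replicate 1 was low and ASC_C replicate 2 stood close to the ASC_HFS libraries. Of the multiplexins, which sit at the basement membrane, Col15a1 (ENSRNOG00000060381) had 3415 and 2992 normalized counts in ASC_HFS, against 1013 and 2019.7 in ASC_C. It rose 2.11-fold (log2 difference 1.12, SE 0.36, adjusted p = 0.0433). This call was lost under quantile normalization (adjusted p = 0.0664), upper quartile scaling (0.0516) and a limma-trend fit of all 8 libraries together (0.0628). Col18a1, the source of endostatin, had 1058 and 961 normalized counts in ASC_HFS, against 869.8 and 831 in ASC_C (adjusted p = 0.60001).

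Beaded filament chains were higher in both ASC_HFS libraries than in both ASC_C libraries for 5 of 5 genes, against 28.5% of all genes. The test called 3 of 5 as higher, against 9.41% of all genes. Type VI collagen is assembled from Col6a1, Col6a2 and 1 more chain, which is Col6a3, Col6a5 or Col6a6, and Col6a3 also releases endotrophin, a fragment studied in obese fat. Col6a2 (ENSRNOG00000001254) had 8841 and 6448 normalized counts in ASC_HFS, against 2038 and 3670.0 in ASC_C. It rose 2.68-fold (log2 difference 1.44, SE 0.39, adjusted p = 0.0197). Col6a3 (ENSRNOG00000019648) had 2451 and 2147 normalized counts in ASC_HFS, against 578 and 962 in ASC_C. It rose 2.99-fold (log2 difference 1.53, SE 0.32, adjusted p = 0.00529). Col6a6 (ENSRNOG00000023007), scarce in these cells, had 54.3 and 94.3 normalized counts in ASC_HFS, against 10.2 and 30.5 in ASC_C. It rose 3.65-fold (log2 difference 0.89, SE 0.25, adjusted p = 0.0246). Col6a1 (ENSRNOG00000001249), which lies beside Col6a2, had 6439.7 and 5418 normalized counts in ASC_HFS, against 1858 and 3706 in ASC_C and just missed the threshold, with a ratio of 2.13 (log2 difference 1.15, SE 0.39, adjusted p = 0.0522). Col6a5, at 3 to 44 reads, had 27.4 and 10.9 normalized counts in ASC_HFS, against 3.71 and 5.83 in ASC_C (adjusted p = 0.159).

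Both network chains listed in ASC fell, against 9.70% of all genes called as lower. Type VIII collagen, a product of endothelial and vascular smooth muscle cells that is made during tissue remodelling, has the chains Col8a1 and Col8a2. Col8a1 (ENSRNOG00000039668) had 118 and 43.5 normalized counts in ASC_HFS, against 568 and 408 in ASC_C. It was 6.02-fold lower (log2 difference -2.01, SE 0.29, adjusted p = 0.000583), and limma-voom called it without any 1 library as well. Col8a2 (ENSRNOG00000010841) had 13.7 and 21.8 normalized counts in ASC_HFS, against 145 and 65.5 in ASC_C. It was 5.92-fold lower (log2 difference -1.20, SE 0.26, adjusted p = 0.00627). The ASC_HFS values rest on 6 to 190 reads a library, and the ASC_C values on 146 to 910.

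Of 7 fibril-associated chains in ASC, 1 fell and none rose (14.3% called, against 19.1% of all genes). Col12a1 (ENSRNOG00000058470), which bridges fibrils in tissues under tension, had 392 and 439 normalized counts in ASC_HFS, against 1811 and 1092 in ASC_C. It was 3.49-fold lower (log2 difference -1.61, SE 0.30, adjusted p = 0.00303), and limma-voom called it without any 1 library as well. Col14a1 (ENSRNOG00000026415), a relative of Col12a1, had higher values in ASC_HFS, with 2265 and 2263 normalized counts in ASC_HFS, against 1279 and 1320.3 in ASC_C (adjusted p = 0.0875). The groups of Col14a1 did not overlap. Col16a1 had 827 and 805 normalized counts in ASC_HFS, against 709.6 and 992 in ASC_C (adjusted p = 0.944). Col9a2 and Col9a3, chains of cartilage type IX collagen, had 1 to 14 reads in the ASC libraries, and with Col20a1 and Col22a1 they are 4 of the 7 collagens that had a library at or below 3 reads.

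Transmembrane and anchoring chains were scarce in ASC, and none of the 3 genes passed the test. Col17a1, a component of epithelial hemidesmosomes, had 14.3 and 3.63 normalized counts in ASC_HFS, against 23.2 and 52.01 in ASC_C (adjusted p = 0.0596), the lower values in ASC_HFS. Col13a1 had 20.6 and 14.5 normalized counts in ASC_HFS, against 6.48 and 2.24 in ASC_C (adjusted p = 0.1298), the higher values in ASC_HFS. Col7a1, which anchors the epidermis, had 41.8 and 29.01 normalized counts in ASC_HFS, against 10.2 and 34.5 in ASC_C (adjusted p = 0.399), and its groups overlapped.

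**Figure D2:**
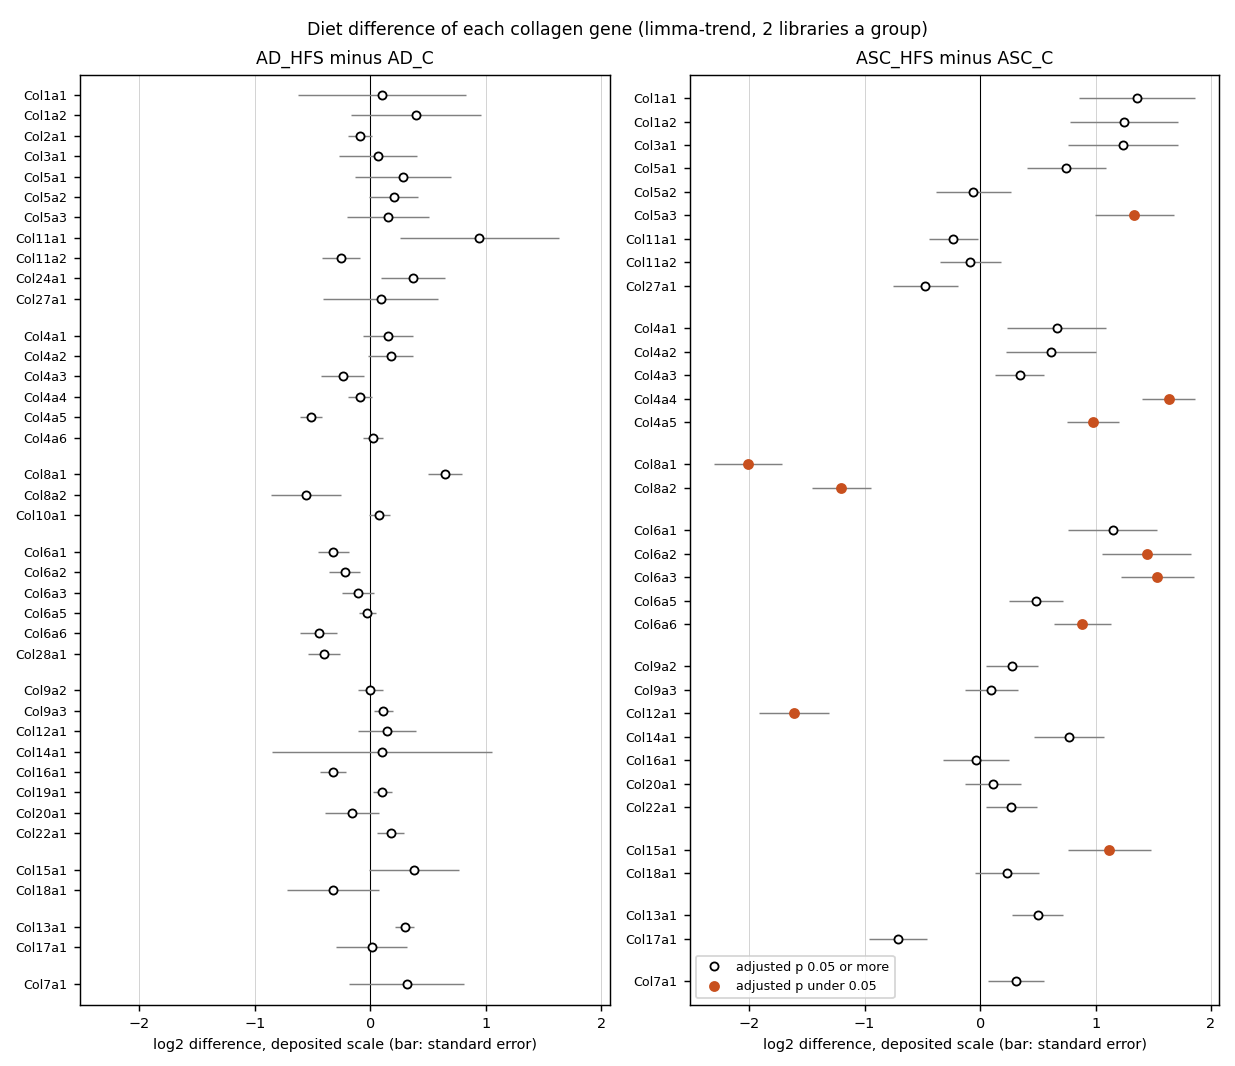
Log2 difference, HFS minus C, of each collagen gene with its standard error, on the deposited scale, in AD on the left and ASC on the right. Filled points passed the test in that table. In ASC 10 genes are filled, with Col8a1 lowest at -2.01 and Col4a4 highest at 1.63, and in AD none is.

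Summed over genes, collagens took 6.56% and 6.78% of the reads of the ASC_HFS libraries, against 2.93% and 3.93% in ASC_C. The mean share was 6.67% ± 0.153 in ASC_HFS and 3.43% ± 0.706 in ASC_C (SD, n = 2 each). Their difference of 3.25 percentage points gave p = 0.333 in a two-sided exact permutation test, the smallest p that 2 against 2 libraries allow. Col1a1, Col1a2 and Col3a1 carried most of it, with 5.17% and 5.59% of reads in ASC_HFS, against 2.21% and 2.84% in ASC_C. Beaded filament chains took 0.489% and 0.392% in ASC_HFS, against 0.145% and 0.256% in ASC_C. Basement membrane chains overlapped, at 0.4798% and 0.396% in ASC_HFS and 0.224% and 0.433% in ASC_C.

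**Figure D3:**
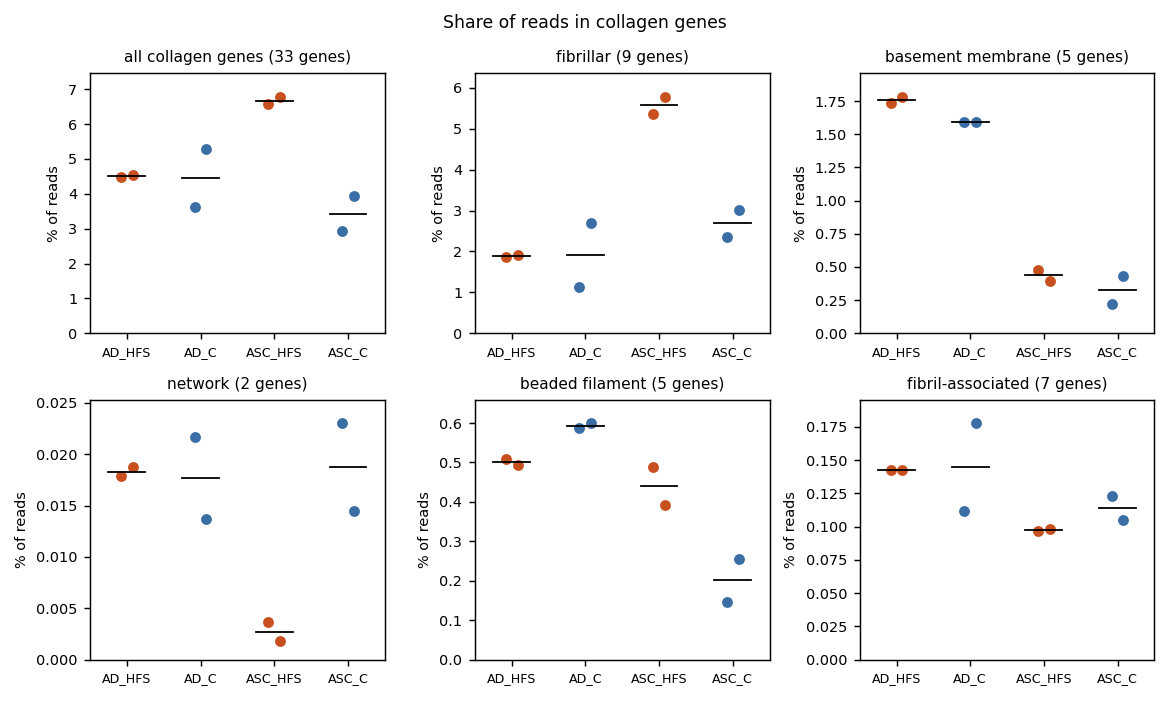
Percentage of the reads of each library, over the 14018 genes listed in both tables, that fell in collagen genes and in 5 classes of them. Points are libraries, black lines are group means, HFS is orange and C is blue. The ASC_HFS libraries lie above the ASC_C libraries for all collagen genes together, and the AD_HFS libraries lie between the AD_C libraries.

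Most genes of enzymes that modify collagen chains fell in ASC_HFS. Of 17 measured genes for prolyl and lysyl hydroxylation, folding and export, 12 (70.6%) fell and none rose, against 9.70% of all genes called as lower, with a median log2 difference of -1.22, against -0.04 over all genes. Plod2, the lysyl hydroxylase of the telopeptides, had 19.95 and 0 normalized counts in ASC_HFS, against 405 and 216 in ASC_C (log2 difference -2.83, adjusted p = 0.000113). P3h4, a partner of the lysyl hydroxylase complex, had 175 and 102 normalized counts in ASC_HFS, against 514 and 817 in ASC_C (log2 difference -1.85, adjusted p = 0.000896). P4ha3, a catalytic subunit of prolyl 4-hydroxylase, had 47.4 and 10.9 normalized counts in ASC_HFS, against 357 and 82.9 in ASC_C (log2 difference -1.62, adjusted p = 0.0128). P3h1, a prolyl 3-hydroxylase, had 174 and 174 normalized counts in ASC_HFS, against 729.9 and 464 in ASC_C (log2 difference -1.45, adjusted p = 0.00296). The ASC_HFS libraries of all 4 genes lay below both ASC_C libraries, and Plod2 had no read in the shallowest library. P4hb, Mia2, Mia3, Colgalt2 and P3h2 did not pass the test. Of these, Colgalt2 had 7.48 and 3.63 normalized counts in ASC_HFS, against 0.926 and 1.34 in ASC_C (log2 difference 0.30, adjusted p = 0.373), and P3h2 had 10.6 and 0 normalized counts in ASC_HFS, against 0.926 and 3.14 in ASC_C (log2 difference 0.06, adjusted p = 0.903), so that both had higher means in ASC_HFS.

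Across the other collagen pathway lists, 6 genes rose and 3 fell in ASC. Of 10 measured genes for propeptide cleavage and crosslinking, 2 rose and none fell, a share close to the 19.1% called among all genes. Adamts2, which removes the amino-terminal propeptides, had 665 and 667 normalized counts in ASC_HFS, against 250.1 and 232 in ASC_C (log2 difference 1.26, adjusted p = 0.00428). Tll1, a relative of the carboxyl-propeptidase Bmp1, had 79.2 and 102 normalized counts in ASC_HFS, against 24.1 and 25.6 in ASC_C (log2 difference 0.93, adjusted p = 0.00993). Of 7 measured proteoglycans that bind collagen fibrils, 2 rose and 2 fell (57.1% called). Aspn had 168 and 243 normalized counts in ASC_HFS, against 50.02 and 43.9 in ASC_C (log2 difference 1.35, adjusted p = 0.00194). Ogn had 558 and 1041 normalized counts in ASC_HFS, against 259 and 278 in ASC_C (log2 difference 1.31, adjusted p = 0.00886). Both are small leucine-rich proteins of the fibril surface and rose, while 2 others of that family fell. Lum, which limits fibril diameter, had 533 and 693 normalized counts in ASC_HFS, against 3340.3 and 2527 in ASC_C (log2 difference -2.14, adjusted p = 0.000508). Bgn had 1346 and 1029.9 normalized counts in ASC_HFS, against 3644 and 2594 in ASC_C (log2 difference -1.33, adjusted p = 0.0123). None of 7 collagen receptors passed the test. Of 8 genes for collagen degradation, 2 rose and 1 fell (37.5% called). The inhibitor Timp3 had 659.7 and 1084 normalized counts in ASC_HFS, against 159 and 310.2 in ASC_C (log2 difference 1.66, adjusted p = 0.00348). The membrane protease Fap had 214 and 232 normalized counts in ASC_HFS, against 92.6 and 118 in ASC_C (log2 difference 0.78, adjusted p = 0.0316). The gelatinase Mmp9 was the only 1 of these 8 that fell, with 55.5 and 58.02 normalized counts in ASC_HFS, against 157 and 105 in ASC_C (log2 difference -0.72, adjusted p = 0.0422). The median log2 differences of these lists were -0.02 for cleavage and crosslinking, -0.17 for the proteoglycans, -0.24 for the receptors and 0.12 for degradation.

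Markers of several cell types also differed between the ASC groups, not all in the same direction. Over all genes 9.41% were called as higher and 9.70% as lower. Of 10 macrophage and myeloid markers 8 rose and none fell, and the list took 0.216% and 0.235% of reads in ASC_HFS, against 0.0482% and 0.0541% in ASC_C. Of 8 endothelial markers 7 rose, at 0.114% and 0.119% in ASC_HFS, against 0.0247% and 0.05001% in ASC_C. Of 8 epithelial and mesothelial markers 6 rose and 1 fell, at 0.02601% and 0.0265% in ASC_HFS, against 0.00839% and 0.00948% in ASC_C. Of 8 mesenchymal progenitor markers 4 rose and 2 fell, at 0.284% and 0.215% in ASC_HFS, against 0.205% and 0.178% in ASC_C. Of 8 smooth muscle and pericyte markers 2 rose and 2 fell, at 0.0281% and 0.0208% in ASC_HFS, against 0.0497% and 0.0425% in ASC_C. Of 9 adipocyte markers 3 rose, at 0.393% and 0.314% in ASC_HFS, against 0.191% and 0.452% in ASC_C, and these shares overlapped. Of 3 chondrocyte and osteoblast markers none passed. Cnn1 and Msln had no read in at least 1 ASC library. The part of these cell types in the collagen differences was not tested.

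In AD no collagen gene passed the test, and for many of them the AD_HFS libraries lay between 2 widely spaced AD_C libraries. limma-trend with Benjamini-Hochberg adjustment called 0 of 39, while 1.34% of all 18236 genes were called, 1.31% as higher and 0.0329% as lower. limma-voom also called 0. In the limma-trend fit 6 of the 39 had an unadjusted p under 0.05, as did 2540 of all 18236 genes. Both AD_HFS libraries lay between the AD_C libraries for 17 of 39 genes, a count that was not made over all genes. They lay above both for 7 genes, against 24.2% of all genes, and below both for 10, against 23.5%. The groups thus did not overlap for 43.6% of the collagens, against 47.7% of all genes. Among collagen genes with a group mean of at least 100 normalized counts, the median fold between the 2 libraries was 1.02 in AD_HFS and 1.76 in AD_C. For all genes the mean over all AD libraries was used instead, with 1 added to each value. Over the 12620 genes with such a mean of at least 100, the medians were 1.04 in AD_HFS and 1.21 in AD_C.

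The gap between the AD_C libraries was wide for many fibrillar and some fibril-associated chains. Col1a1 had 369095 and 360499.7 normalized counts in AD_HFS, against 159188 and 726665 in AD_C, a 4.56-fold gap between the AD_C libraries. Col1a2 had 318748 and 319257 normalized counts in AD_HFS, against 135987 and 433297 in AD_C. Col3a1 had 818966 and 843325 normalized counts in AD_HFS, against 598831 and 1056214 in AD_C. In all 3 the AD_HFS libraries sat close together between the AD_C libraries, and AD_C replicate 2 was the higher. Collagens together took 4.49% and 4.55% of reads in AD_HFS, against 3.63% and 5.29% in AD_C. The difference of 0.0565 percentage points became -0.775 without AD_C replicate 1 and 0.888 without AD_C replicate 2. Col5a1 had 74656 and 73385 normalized counts in AD_HFS, against 39539.8 and 93532 in AD_C. Col5a2 had 171290.1 and 177341 normalized counts in AD_HFS, against 126174 and 181950.2 in AD_C. The order of the libraries was that of the type I chains for Col5a1 and for Col5a2. Col11a1, a chain best known from cartilage, had 15524 and 16649.7 normalized counts in AD_HFS, against 3850.3 and 17437 in AD_C. Col14a1 had 4401 and 4336 normalized counts in AD_HFS, against 1339.6 and 11583 in AD_C, an 8.65-fold gap and the widest of any collagen gene with a mean of at least 100. Col12a1 had 110924 and 110418 normalized counts in AD_HFS, against 78607 and 127582 in AD_C. AD_C replicate 2 stood above AD_C replicate 1 in 29 of 39 collagen genes, with Col18a1 and Col8a2 among the others. The same count was not made over all genes.

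The abundant type IV chains differed far less between the AD_C libraries. Col4a1 had 980321 and 1004883 normalized counts in AD_HFS, against 905986 and 880584 in AD_C, 1.11-fold higher (adjusted p = 0.8098). Col4a2 had 705807 and 717229.9 normalized counts in AD_HFS, against 619043 and 641746 in AD_C, 1.13-fold higher (adjusted p = 0.747). Both had higher values in AD_HFS, with groups that did not overlap. Col4a5 had 2276 and 2282 normalized counts in AD_HFS, against 3297 and 3391 in AD_C, 1.47-fold lower (adjusted p = 0.0986), which was the lowest adjusted p of any collagen gene in AD. Col4a4 had 2463 and 2423 normalized counts in AD_HFS, against 2496 and 2739 in AD_C (adjusted p = 0.748).

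All 6 beaded filament chains had negative log2 differences in AD, as had 9513 of all 18236 genes. In 5 of 6 both AD_HFS libraries lay below both AD_C libraries, against 23.5% of all genes. Col6a1 had 177891 and 174291 normalized counts in AD_HFS, against 224501 and 215664 in AD_C, 1.25-fold lower (adjusted p = 0.403). Col6a2 had 168339 and 158609 normalized counts in AD_HFS, against 189914 and 191589.9 in AD_C, 1.17-fold lower (adjusted p = 0.547). Col6a3 had 149076 and 145084 normalized counts in AD_HFS, against 149590.0 and 168297 in AD_C, 1.08-fold lower (adjusted p = 0.779). For all 3 chains the AD_HFS pair lay below the AD_C pair, and none passed the test. Col6a6 had 48.1 and 14.4 normalized counts in AD_HFS, against 75.97 and 77.9 in AD_C (adjusted p = 0.334), and Col28a1 had 13.8 and 7.18 normalized counts in AD_HFS, against 54.4 and 24.4 in AD_C (adjusted p = 0.316).

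The network chains parted in AD. Col8a1 had 11304 and 12027 normalized counts in AD_HFS, against 8394 and 6494 in AD_C, 1.57-fold higher (adjusted p = 0.156). Col8a2 had 6073 and 6142 normalized counts in AD_HFS, against 12480.2 and 6616 in AD_C, 1.56-fold lower (adjusted p = 0.503). Col8a1 values were thus higher and Col8a2 values lower in both AD_HFS libraries, with AD_C replicate 2 of Col8a2 close to them. Col15a1 had 149471 and 149106 normalized counts in AD_HFS, against 77011 and 170483 in AD_C. Col18a1 had 48591 and 48381 normalized counts in AD_HFS, against 91826 and 40011 in AD_C. The AD_C libraries were thus ordered in opposite ways in the 2 multiplexin genes. Col16a1, a fibril-associated chain, had 22598 and 23096 normalized counts in AD_HFS, against 26822 and 30621 in AD_C (adjusted p = 0.301). Col13a1 had 26.1 and 19.1 normalized counts in AD_HFS, against 7.597 and 5.68 in AD_C (adjusted p = 0.224). Neither passed the test, although their groups did not overlap. Col17a1 had 249 and 225 normalized counts in AD_HFS, against 133 and 377 in AD_C. Col7a1 had 875 and 854 normalized counts in AD_HFS, against 318 and 1239 in AD_C. Both AD_HFS libraries lay between the AD_C libraries for these 2 genes.

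The AD result changed with the AD_C library that was left out. limma-trend called many more genes without AD_C replicate 1, and also without AD_C replicate 2, than with all libraries. This held over the whole AD table, so the rise was not particular to collagens. Collagen genes were called in both fits, some as higher and some as lower. For Col1a1, Col1a2, Col3a1, Col5a1, Col12a1 and Col14a1, among others, the direction changed with the AD_C library left out. In each of these the AD_HFS libraries lay between the AD_C libraries. Both AD_HFS libraries lay above both AD_C libraries for Col8a1 and Col13a1. They lay below both for Col16a1, Col4a5, Col6a1, Col6a2 and Col6a6. For these genes the direction could not differ between the fits without AD_C replicate 1 and without AD_C replicate 2. Agreement in direction was not counted over all genes. Such fits leave AD_C with 1 library, which is assumed to vary like the AD_HFS pair, and without either AD_HFS library 0 genes of the table were called by limma-trend or limma-voom, with 770 to 898 at an unadjusted p under 0.05. None of the lists of collagen-modifying, cleaving, binding, receptor or degrading genes held a called gene in AD. Over all genes of AD 1.31% were called as higher. Of 10 macrophage and myeloid markers 5 rose, at 0.245% and 0.245% of reads in AD_HFS, against 0.0268% and 0.0438% in AD_C. Of 8 endothelial markers 1 rose, and no other marker list described here held a called gene. The part of these cells in the AD values was not tested.

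The diet difference itself was then compared between the stages in 1 limma-trend fit of all 8 libraries over the 14018 genes listed in both tables, as the HFS minus C difference in AD minus that in ASC. This difference of differences was called for 7 of 33 collagen genes (21.2%), while 12.5% of all genes were called, 7.53% as higher and 4.93% as lower. Col8a1 and Col12a1, which fell in ASC, had a more positive diet difference in AD. Col8a1 gave 2.66 (SE 0.39, adjusted p = 0.00523), with differences of 0.64 in AD and -2.01 in ASC. Col12a1 gave 1.76 (SE 0.41, adjusted p = 0.02602), with differences of 0.14 in AD and -1.61 in ASC.

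Col4a4, Col4a5 and type VI chains, which rose in ASC, had a more negative diet difference in AD. Col4a4 gave -1.72 (SE 0.25, adjusted p = 0.00532), with differences of -0.09 in AD and 1.63 in ASC. Col4a5 gave -1.49 (SE 0.25, adjusted p = 0.00782), with differences of -0.51 in AD and 0.97 in ASC. Among the type VI chains, Col6a2 gave -1.66 (SE 0.44, adjusted p = 0.0393), Col6a3 gave -1.64 (SE 0.36, adjusted p = 0.0218) and Col6a6 gave -1.34 (SE 0.34, adjusted p = 0.03296). Of the other collagens that changed in ASC, Col5a3 (-1.19, adjusted p = 0.163), Col15a1 (-0.74, adjusted p = 0.411) and Col8a2 (0.64, adjusted p = 0.346) were not called. The deposited scale compresses scarce genes, and not equally in both tables. These log2 values thus understate the differences of genes such as Col6a6, Col4a4 and Col8a2. By normalized counts Col8a2 was 5.92-fold lower in ASC_HFS than in ASC_C, and 1.56-fold lower in AD_HFS than in AD_C. Leaving out each library in turn, limma-trend called 3 to 8 collagen genes for the interaction, with 4 left without ASC_C replicate 1 and 3 each without ASC_HFS replicate 2, AD_HFS replicate 1 and AD_HFS replicate 2.

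Levels by stage are given as CPM, reads scaled to the same total per library, over the 14018 genes of both tables, as a description without a test, because the tables were normalized separately and stage goes with table and depth. AD_HFS lay above ASC_HFS without overlap for 16 of 33 collagen genes, against 47.9% of all genes, and below for 13, against 32.8%. AD_C lay above ASC_C for 17, against 31.4% of all genes, and below for 10, against 38.9%. Both diets agreed for 12 collagen genes that were higher in AD, against 24.5% of all genes, and for 8 that were lower, against 22.0%. The median ratio of AD over ASC was 0.988 in HFS and 1.69 in C for the collagens, and 1.15 in HFS and 0.898 in C for all genes.

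Basement membrane and fibril-organizing chains were among those higher in AD in both diets. Col4a1 had 10082 and 10369 CPM in AD_HFS, against 3103 and 2513 in ASC_HFS, 3.64-fold higher. In the C groups it had 9419.9 and 9172 CPM in AD_C, against 1417 and 2827 in ASC_C, 4.38-fold higher. Col4a2 was 4.94-fold higher in AD_HFS than in ASC_HFS, and 5.74-fold higher in AD_C than in ASC_C. Col15a1 and Col18a1, also of the basement membrane zone, were higher in AD as well. So were Col5a2, Col5a3, Col11a2, Col6a1 and Col6a3. In HFS the ratio was close to even for Col5a3 (1.04, against 2.24 in C) and Col6a1 (1.11, against 2.64 in C). Col11a2 rests on 16 and 0 reads in ASC_HFS and on 2 and 14 reads in ASC_C. Counted by class, all 5 basement membrane chains were higher in AD_C than in ASC_C, while 2 were higher and 2 lower in AD_HFS than in ASC_HFS.

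The largest ratios of AD over ASC in HFS were those of Col11a1, Col8a2 and Col12a1. Col11a1 had 159.7 and 172 CPM in AD_HFS, against 4.104 and 5.04 in ASC_HFS, 36.2-fold higher. In the C groups it had 40.03 and 182 CPM in AD_C, against 8.09 and 8.23 in ASC_C, 13.6-fold higher. In C it was 22.3-fold higher without AD_C replicate 1 and 4.91-fold higher without AD_C replicate 2. Col12a1 was 9.93-fold higher in AD_HFS than in ASC_HFS and 2.33-fold higher in AD_C than in ASC_C. Col8a2 was 12.8-fold higher in AD_HFS than in ASC_HFS and 2.98-fold higher in AD_C than in ASC_C (4.96-fold without ASC_C replicate 1). Col12a1 and Col8a2 were also among the genes that fell in ASC_HFS. Their HFS ratios are divided by the values of those same ASC_HFS libraries, so the 2 observations are not independent.

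The type I chains were lower in AD in both diets. Col1a1 had 3796 and 3719.8 CPM in AD_HFS, against 22148 and 23448 in ASC_HFS, 6.07-fold lower. In the C groups it had 1655 and 7569 CPM in AD_C, against 8661 and 11862 in ASC_C, 2.22-fold lower. In C it was 1.36-fold lower without AD_C replicate 1 and 6.20-fold lower without AD_C replicate 2. Col1a2 was 4.18-fold lower in AD_HFS than in ASC_HFS and 2.24-fold lower in AD_C than in ASC_C, where it was 1.47-fold lower without AD_C replicate 1 and 4.69-fold lower without AD_C replicate 2. Col14a1 had 45.3 and 44.7 CPM in AD_HFS, against 621 and 629 in ASC_HFS, 13.9-fold lower. In the C groups it had 13.9 and 121 CPM in AD_C, against 414 and 404 in ASC_C, 6.08-fold lower. That fold was 3.39 without AD_C replicate 1 and 29.4 without AD_C replicate 2. The size of these C ratios thus depended on the AD_C library, while AD_C stayed lower without either. Col13a1, Col6a5, Col6a6, Col9a3 and Col22a1, all scarce, were lower too. For Col3a1 AD lay below ASC in HFS, where it was 2.02-fold lower, while in C the libraries overlapped.

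The stage ratio ran in opposite directions by diet, without overlap in either, for 5 of 33 collagen genes (15.2%), against 11.8% of all genes. Of these, Col8a1 was higher in AD in HFS and lower in AD in C, and Col4a4, Col4a3, Col6a2 and Col9a2 were lower in AD in HFS and higher in AD in C. The interaction called for Col8a1, Col4a4 and Col6a2 rests on the same libraries, so their stage ratios are not independent of it. Col8a1 had 116 and 124 CPM in AD_HFS, against 32.5 and 12.1 in ASC_HFS, 5.39-fold higher, and in the C groups 87.3 and 67.6 CPM in AD_C, against 184 and 125 in ASC_C, 1.99-fold lower. In HFS it was 9.94-fold higher without ASC_HFS replicate 1. Col4a4 had 25.3 and 25.001 CPM in AD_HFS, against 61.7 and 47.4 in ASC_HFS, 2.17-fold lower, and in the C groups 25.9 and 28.5 CPM in AD_C, against 7.19 and 10.98 in ASC_C, 2.999-fold higher. Its neighbour Col4a3 was 1.28-fold lower in AD_HFS than in ASC_HFS and 2.11-fold higher in AD_C than in ASC_C. Col6a2 had 1731 and 1637 CPM in AD_HFS, against 2425 and 1792 in ASC_HFS, 1.25-fold lower, and in the C groups 1975 and 1996 CPM in AD_C, against 659 and 1123 in ASC_C, 2.23-fold higher. Col9a2 was 1.97-fold lower in AD_HFS than in ASC_HFS and 2.09-fold higher in AD_C than in ASC_C, on 1 to 5 reads a library in ASC, and in HFS it was 1.17-fold lower without ASC_HFS replicate 2.

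**Figure D4:**
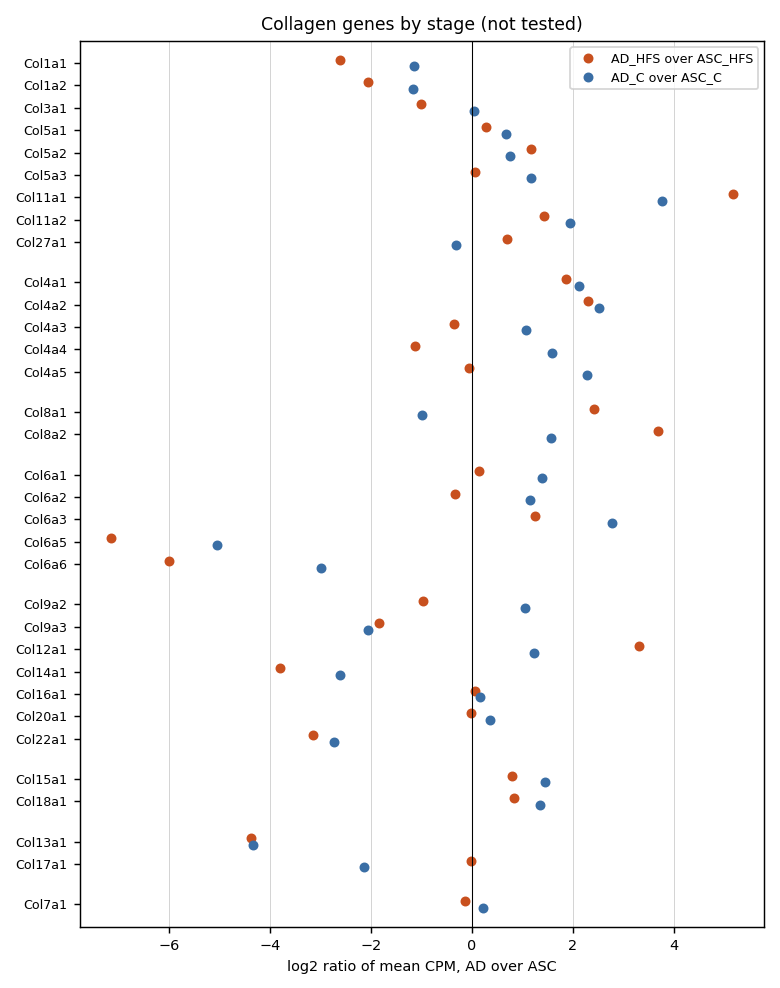
Log2 ratio of mean CPM, AD over ASC, of the 33 collagen genes listed in both tables, for HFS (orange) and C (blue), with gaps between classes. Col11a1 lies far to the right in both diets, Col6a5, Col6a6 and Col13a1 far to the left, and 10 genes have their 2 points on opposite sides of 0, among them the 5 whose libraries do not overlap in either diet (Col8a1, Col4a4, Col4a3, Col6a2 and Col9a2).

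Chains that are built into the same molecule were compared as ratios of reads within each library, which do not depend on the scaling of the tables. These ratios carry the unknown lengths of both genes, so only their change between libraries can be read. Col1a1 over Col1a2, whose type I helix holds 2 chains of Col1a1 for each Col1a2, ran from 1.13 to 1.71 over the 8 libraries. It was 1.16 and 1.13 in AD_HFS, 1.17 and 1.68 in AD_C, 1.71 and 1.61 in ASC_HFS and 1.49 and 1.59 in ASC_C. Col4a1 over Col4a2, the head-to-head pair shown above, ran from 1.37 to 1.93. Its AD values of 1.39 and 1.401 in AD_HFS and 1.46 and 1.37 in AD_C lay below its ASC values of 1.93 and 1.84 in ASC_HFS and 1.75 and 1.91 in ASC_C.

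Within type VI collagen, Col6a1 over Col6a3 was 1.19 and 1.201 in AD_HFS, 1.501 and 1.28 in AD_C, 2.63 and 2.52 in ASC_HFS and 3.21 and 3.85 in ASC_C, lower in HFS than in C at both stages. Col6a1 over Col6a2 ran from 0.728 to 1.18, and Col5a1 over Col5a2 from 0.313 to 0.811. The ratio of Col3a1 to Col1a1, the fibril types found together in loose tissue, was 2.22 and 2.34 in AD_HFS, 3.76 and 1.45 in AD_C, 0.751 and 0.763 in ASC_HFS and 0.881 and 0.764 in ASC_C. All 4 AD libraries thus lay above all 4 ASC libraries, and the AD_C libraries were furthest apart. Col8a1 over Col8a2 was 1.86 and 1.96 in AD_HFS and 0.673 and 0.981 in AD_C. In ASC it rests on as few as 6 reads of Col8a2, as Col9a2 over Col9a3 does on 1 read of Col9a3.

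**Figure D5:**
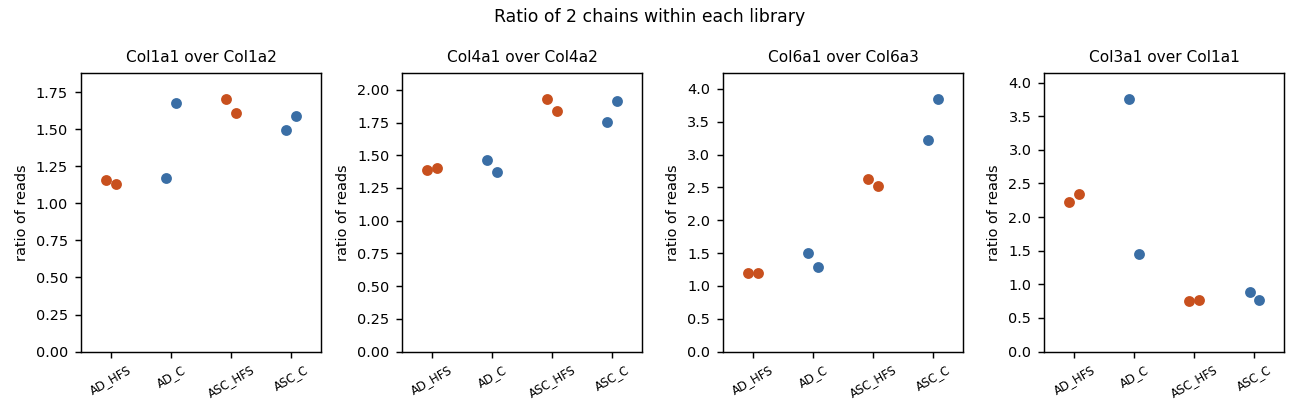
Ratio of reads of 2 collagen chains within each library, for 4 pairs, with axes that start at 0. Points are libraries, HFS in orange and C in blue. Col3a1 over Col1a1 is higher and Col6a1 over Col6a3 lower in every AD library than in every ASC library.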

How the data were processed

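The authors deposited 1 table of gene values for the 4 AD libraries and 1 for the 4 ASC libraries. Per the submitters' processing notes, FastQC, STAR, featureCounts and DESeq2 were used on mRatBN7.2 and rn7, and versions and settings are not given in the sources used here. The labels name both polyA RNA and an rRNA depletion kit. The deposited values are a signal: as the values show, they are antilogs (base 2) of gene counts after size-factor scaling and variance stabilization, done separately for either table. Inverting that transformation returned whole numbers of reads throughout (100% of values, tolerance 1e-06), and these gave depths, normalized counts, ratios and CPM. Replicates differed by more than sampling noise in all 4 groups.

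HFS was tested against C separately in either table by limma-trend, from limma 3.58.1 in R 4.3.3. The deposited values entered it as logarithms to base 2 after adding a pseudocount of 1, genes averaging under 10 were left out (none did), and two-sided p-values were adjusted by Benjamini-Hochberg across the table, with 0.05 as the threshold. Log2 differences on this scale understate changes of scarce genes. The interaction used 1 fit of 8 libraries. limma-voom with TMM scaling on the recovered counts, other pseudocounts, filters and scalings, a replicate block and leaving out each library were alternatives. Sums and figures used Python 3.11.15, pandas 2.3.3, scipy 1.17.1 and matplotlib 3.10.9. The fits were tested on simulated data. Coordinates and neighbours come from RefSeq GRCr8, since no genome of the tables' build was used here, and only for names, neighbours and promoters.

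Members, classes and gene lists were chosen with earlier results of these data known. Named were all members called in any comparison, the most abundant member of each class in each table, members of the partner pairs, and up to 4 called genes per list with the largest log2 difference. Other members named for their values were chosen after these were seen. Of the other pathway genes, those absent from a table were not analysed here. Another list of cell type markers is not reported here.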

Additional observations from a re-analysis of the deposited data

Results flagged for a closer look

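For 7 collagen genes the difference between HFS and C itself differed between AD and ASC by the interaction test (limma-trend, Benjamini-Hochberg adjusted p under 0.05, AD difference minus ASC difference, 2 libraries per group). The interaction was positive for Col8a1 (2.66) and Col12a1 (1.76), both of which fell in ASC_HFS. It was negative for Col4a4 (-1.72), Col4a5 (-1.49), Col6a2 (-1.66), Col6a3 (-1.64) and Col6a6 (-1.34), all of which rose in ASC_HFS. None of the 7 passed the test within AD. With 2 libraries per group, no group was large enough to be searched for a single outlying library.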

How the results depend on the processing

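Counts of collagen genes called in ASC (10) moved by more than 1.5 times under limma-voom (16) and under a replicate block with the HFS numbers crossed (17, chosen after seeing the data, as was leaving out libraries under limma-voom), and otherwise lay between 9 and 12. Leaving out 1 library gave 0 to 18 in ASC (0 under limma-trend throughout, 3 to 18 under limma-voom). In AD, where 0 were called with all libraries, it gave 0 to 26 under limma-trend and 0 to 27 under limma-voom. For the interaction (7 with all libraries) it gave 3 to 8 under limma-trend and 0 to 10 under limma-voom, with 0 without ASC_HFS replicate 1, AD_HFS replicate 1 or AD_HFS replicate 2 and 2 without ASC_HFS replicate 2. Such fits assume that the lone library varies like the other groups, and the cause of these moves was not tested. No gene called with all libraries changed direction under any alternative. In ASC 107 of 110 gene calls were kept under the other settings, the 3 losses being those of Col15a1. Among these settings, dropping the filter on low values could change no call in ASC or for the interaction, because the filter removed no gene. For the interaction 66 of 70 were kept, and the 4 losses were those of Col6a2 on log2 CPM (adjusted p = 0.0566) and under the replicate block (0.0746), and of Col6a6 under limma-voom (0.0612) and on log2 CPM (0.0782), over ranges of 0.00230 to 0.0782.

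Equal replicate numbers carry no stated pairing, and deviations of equally numbered libraries correlated at -0.123 in ASC and 0.00141 in AD. The replicate block gave 11 collagen genes in ASC, 0 in AD and 6 for the interaction, and the crossed block 8 for the interaction. Over all genes of AD, the block called 661, upper quartile scaling 95 and log2 CPM 76, against 244. The share of reads in collagens differed by 2.75 to 3.75 percentage points in ASC and by -0.775 to 0.888 in AD when 1 library was left out. Depth limits the ASC values, where 7 of 33 collagens had a library at or below 3 reads. Ratios of AD_C over ASC_C moved by over 1.5 times for 8 of 33 collagens without AD_C replicate 1 and for 10 without AD_C replicate 2, settings chosen after seeing the data.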
